A study of Mus musculus with 8 samples.

Results

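The 10 genes described here are the Notch ligands *Jag1*, *Jag2* and *Dll4*, the receptors *Notch1*, *Notch2*, *Notch3* and *Notch4*, the DNA-binding factor *Rbpj*, and the target genes *Hes1* and *Hey1*. They were taken by name from the 20308 gene symbols in the count files, and the group was chosen by the fall of *Jag1*, as measured by its counts in CSF1 OE against control mice. All 10 were among the 13407 genes that passed the filter on low counts, with at least 60 counts in every library. Because the choice of genes used the comparison of the genotypes, their differences between genotypes are given as a description. Where a member passed the threshold of the fit over all genes, this is stated but not read as a test.

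RNA was sequenced from CD11b+ brain cells of 4 CSF1 OE mice and 4 control mice, with 1 library per mouse and no pooling. CSF1 OE mice carry a transgene for the secreted form of CSF1, the growth factor that microglia depend on, driven through the TRE/tTA system in some of the GFAP+ cells, which are astrocytes and related cells. Both groups were F1 offspring of C57Bl/6 and CD1 parents, 14 or 15 days old, and the control mice are labelled only as controls for overexpression, so which parts of the transgene system they carry is not stated. Cells came from the right hemisphere after myelin removal on Percoll, were bound by magnetic beads against CD11b, an integrin chain of myeloid cells, and were not sorted further. The source of the transgene's CSF1 is therefore a cell type that the beads do not select.

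Notch signalling passes between touching cells. A ligand of the Jagged or Delta-like family on 1 cell binds a Notch receptor on its neighbour, proteases then cut the receptor, and the freed intracellular part enters the nucleus, where it joins Rbpj and switches on genes of the Hes and Hey families. In the brain the pathway is best known for neural progenitors and for blood vessels, where Jag1, Dll4 and Notch4 are made by endothelial cells, Notch3 by the mural cells around them, and Notch activity favours arterial over venous identity.

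In the GENCODE M21 annotation of GRCm38, *Jag1* lies on the minus strand at chr2:137081456-137116644, *Dll4* on the plus strand at chr2:119325784-119335962 and *Notch4* on the plus strand at chr17:34564268-34588503. The start regions of these 3 genes are shown because *Jag1*, *Dll4* and *Notch4* had 3 of the 4 lowest log2 fold changes of the 10 genes. The window of *Jag2*, the other of these 4, lies inside the annotated gene. Each is given 5′ to 3′ on the gene's own strand, from RefSeq (GRCm38.p6), and stops before the first annotated transcribed base. The stretches are chr2:137116645-137116770 for *Jag1*, chr2:119325534-119325783 for *Dll4* and chr17:34564045-34564267 for *Notch4*, and capitals mark matches to the ETS core AGGAAG on either strand.
Jag1: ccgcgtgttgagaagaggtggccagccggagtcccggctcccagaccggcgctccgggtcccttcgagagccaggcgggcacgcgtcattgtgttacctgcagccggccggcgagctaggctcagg
Dll4: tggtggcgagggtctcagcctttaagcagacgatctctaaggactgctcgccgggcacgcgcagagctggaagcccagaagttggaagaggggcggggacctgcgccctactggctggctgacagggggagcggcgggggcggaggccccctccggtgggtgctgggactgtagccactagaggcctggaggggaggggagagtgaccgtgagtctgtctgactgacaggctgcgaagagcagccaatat
Notch4: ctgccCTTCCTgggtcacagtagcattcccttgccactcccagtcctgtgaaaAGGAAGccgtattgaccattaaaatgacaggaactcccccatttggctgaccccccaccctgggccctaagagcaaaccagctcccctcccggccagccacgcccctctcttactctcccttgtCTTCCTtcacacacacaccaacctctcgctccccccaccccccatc

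Promoter windows of 250 bases before to 50 bases after the start were found for 8 of the 10 genes, all but *Hes1* and *Hey1*. They were searched on both strands for the RBPJ core TGGGAA, the E-box CACGTG that Hey proteins bind, and the ETS core AGGAAG, which ETS factors of endothelium and other cells bind, and no match overlapped a match to another motif. The RBPJ core was matched only in the overlapping windows of *Rbpj* itself, at 2 places in all, against 25.6% of all 32851 promoter windows. No member's window held CACGTG, which 7.15% of all windows hold. The ETS core was matched in *Notch4* alone, at 4 places of which 3 lie in the stretch shown, against 35.4% of all windows. The windows of *Jag2*, *Notch1* and *Rbpj* lie inside the annotated genes and are not shown.

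The libraries held between 12053259 and 15475465 counts, with similar ranges in both genotypes, and a count of 0 would allow up to 0.177 to 0.266 CPM, that is counts scaled to a common library size. CPM are given on library sizes normalised by TMM, a method that balances the bulk of genes between libraries. *Csf1* itself ran from 139 to 364 CPM in control mice and from 167 to 400 CPM in CSF1 OE mice, so the groups overlapped for the overexpressed factor in these cells. The summed level of 10 microglial markers was 21514 to 38374 CPM in control mice and 27734 to 39175 CPM in CSF1 OE mice, so the defining markers of the labelled cells were abundant. Markers of endothelial cells were present as well, at 553 to 2003 CPM for 14 genes, none of them at 0 in any mouse. Nothing says whether the mice came from separate litters. The p-values below set a difference or relation against the variation among these mice and treat each mouse as independent.

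Among the ligands, all 3 had lower means in CSF1 OE mice, and the groups were apart for both Jagged genes. *Jag1*, the Jagged ligand that arterial endothelium and several progenitor cells make, measured 22.0, 36.2, 32.6 and 28.6 CPM in control mice 1827, 1872, 1874 and 1934. It measured 12.5, 15.3, 17.0 and 15.4 CPM in CSF1 OE mice 1931, 1932, 1936 and 2019. Every CSF1 OE mouse was below every control mouse, with a gap between 17.0 and 22.0 CPM, and the control mice were the more spread out. The control mean was 29.8 ± 6.06 CPM and the CSF1 OE mean 15.03 ± 1.87 CPM (SD, n = 4 each), a ratio of 0.504. The fitted log2 fold change was -0.99 with a standard error of 0.17. In bulk RNA such as this, fewer cells of a type and less RNA per cell cannot be told apart.

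*Jag1* was the only member called, a call being an adjusted p below 0.05 together with a ratio below 0.7 or above the inverse of 0.7. The share of all genes tested that were called was 0.44%, 52 higher and 7 lower in CSF1 OE mice, and since *Jag1* chose the list nothing is read from its call. It was the last of the 7 lower genes in order of p. Just inside the threshold stood *Adcy6* (log2 fold change -0.68), *Klf12* (-1.07) and *Jag1* (-0.99), and just outside it *Slc9a3r2* (-0.83), *Vangl1* (-0.75) and *Mgp* (-1.23). The call was lost with upper-quartile normalisation, with no filter on low counts, and without any 1 of control mice 1872, 1874 and 1934 or of the 4 CSF1 OE mice. The fold change itself ran from -1.11 to -0.88 over all 14 alternatives.

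*Jag2*, the second Jagged ligand, was at 30.2, 34.8, 38.9 and 32.5 CPM in the control mice and at 18.7, 24.5, 23.7 and 24.8 CPM in the CSF1 OE mice. The groups were again apart, between 24.8 and 30.2 CPM. The means were 34.1 ± 3.71 and 22.9 ± 2.84 CPM, which gave -0.57 on the log2 scale with a standard error of 0.12. *Dll4*, the Delta-like ligand of sprouting and arterial endothelium, was at 10.7, 18.9, 26.9 and 20.8 CPM in control mice against 10.1, 14.8, 17.9 and 8.23 CPM in CSF1 OE mice. Its mean difference was about as large as that of *Jag2*, at -0.59 on the log2 scale, but its standard error was 0.31 and the groups overlapped, because control mouse 1827 was as low as the CSF1 OE mice.

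**Figure D1:**
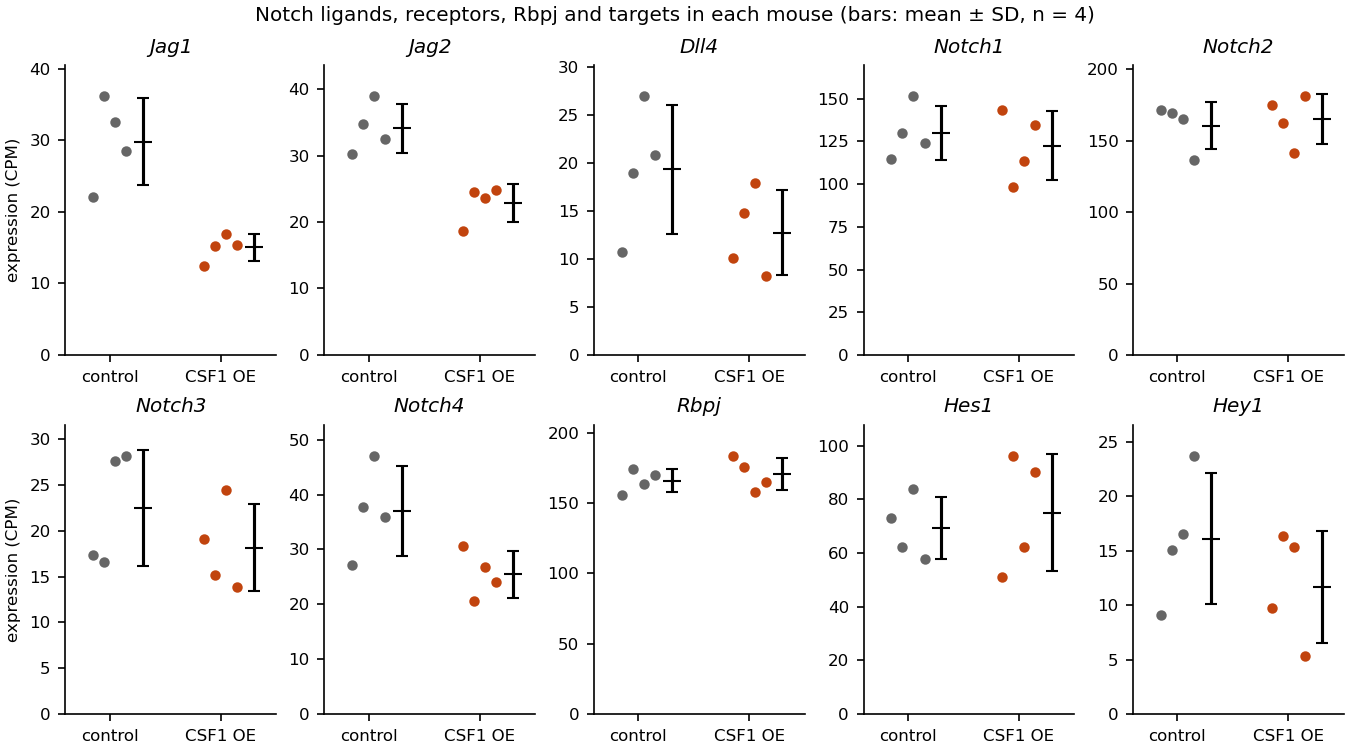
Expression of the 10 genes in CPM (vertical axes, each from 0) for the 4 control mice (grey) and 4 CSF1 OE mice (orange), 1 point per mouse, with mean ± SD. The groups are apart for *Jag1* (12.5 to 17.0 against 22.0 to 36.2 CPM) and *Jag2* (18.7 to 24.8 against 30.2 to 38.9 CPM) and overlap for the other 8 genes.

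The receptors differed among themselves. *Notch1*, a receptor of many tissues, was at 115, 130, 151 and 124 CPM in control mice and at 143, 98.3, 114 and 135 CPM in CSF1 OE mice, with a log2 fold change of -0.09 (SE 0.13). *Notch2*, the receptor known for its roles in myeloid cells and in mural cells, was at 171, 170, 165 and 136 CPM in control mice and at 175, 163, 141 and 181 CPM in CSF1 OE mice, which gave 0.04 on the log2 scale (SE 0.11). For both genes the mice of either genotype covered largely the same range.

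The receptors tied to vessels were less abundant and had lower means in CSF1 OE mice. *Notch4*, the endothelial receptor, was at 27.1, 37.8, 47.1 and 35.9 CPM in control mice and at 30.6, 20.6, 26.8 and 24.0 CPM in CSF1 OE mice. Only CSF1 OE mouse 1931 and control mouse 1827 crossed, and the log2 fold change was -0.54 (SE 0.18). *Notch3*, the receptor of mural cells, was at 17.4, 16.6, 27.6 and 28.2 CPM in control mice and at 19.1, 15.1, 24.5 and 13.9 CPM in CSF1 OE mice, which gave -0.31 on the log2 scale (SE 0.24). Control mice fell into a lower and a higher pair for *Notch3*, and the CSF1 OE mice overlapped both.

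*Rbpj*, the DNA-binding factor through which all 4 receptors act, varied least. It was at 155, 174, 164 and 170 CPM in control mice and at 184, 175, 158 and 165 CPM in CSF1 OE mice, with a log2 fold change of 0.04 and the smallest standard error of the 10 genes, 0.078. *Hes1*, a repressor that many cell types switch on after Notch cleavage, was at 73.2, 62.3, 83.7 and 58.0 CPM in control mice and at 51.0, 96.3, 62.2 and 90.4 CPM in CSF1 OE mice. The CSF1 OE mice enclosed the control range on both sides, and the log2 fold change was 0.11 (SE 0.21). *Hey1*, the target most tied to arterial endothelium, was at 9.14, 15.01, 16.5 and 23.7 CPM in control mice and at 9.77, 16.3, 15.3 and 5.31 CPM in CSF1 OE mice, with a log2 fold change of -0.46. Its standard error of 0.37 was the largest of the 10.

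Of the 10 genes, 7 had a log2 fold change below 0 and 3 above it, with a median of -0.38, against a median of -0.03 over all genes tested. Of all 13407 genes tested, 7405 were below 0 and 6002 above it. 2 of the 10 were lower in every CSF1 OE mouse than in every control mouse, as were 3.45% of all genes tested. None was higher in every CSF1 OE mouse, as were 6.84% of all genes. The first of these counts rests in part on *Jag1*, which was chosen for it.

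The animal numbers in the labels were uneven between the genotypes. Numbers 1931 to 1936 held 1 control and 3 CSF1 OE mice, and the other numbers 3 control mice and 1 CSF1 OE mouse. The labels do not say whether the numbers follow litters or days. *Jag1* was lower in CSF1 OE mice within each range, at 12.5 to 17.0 against 28.6 CPM in the first and at 15.4 against 22.0 to 36.2 CPM in the second. In a comparison added after the data were seen, CSF1 OE mice were below control mice within each range for 6 of the 10 genes, *Jag1*, *Jag2*, *Dll4*, *Notch3*, *Notch4* and *Hey1*, as for 23.2% of all genes tested. This count includes *Jag1*, whose fall chose the group. The 6 genes are not separate results, since some varied together within genotype, such as *Dll4* and *Hey1* (r = 0.85). *Notch2* was above control within each range, as were 19.8% of all genes. With this range as a term in the fit, *Hey1* had a log2 fold change of -1.03 in place of -0.46 and was called together with *Jag1*. That fit called 1273 of the 13407 genes tested, 302 higher and 971 lower.

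Levels of different genes were compared per kb of annotated exon. In control mice *Hes1* was highest at 34.0 ± 5.67 CPM per kb, followed by *Notch2* at 14.9 ± 1.52, *Rbpj* at 13.005 ± 0.643 and *Notch1* at 9.13 ± 1.10. *Notch2* and *Rbpj* overlapped, while *Hes1*, this pair and *Notch1* were separate from one another in all 4 control mice. The next genes were close together, *Jag1* at 5.12 ± 1.04, *Dll4* at 5.01 ± 1.74, *Hey1* at 4.93 ± 1.84, *Jag2* at 4.90 ± 0.533 and *Notch4* at 4.59 ± 1.02 CPM per kb, and each overlapped the next. *Notch3* was lowest at 2.78 ± 0.780 and overlapped *Notch4*. In CSF1 OE mice the first 4 places were unchanged and *Jag1* stood at place 9 of 10, at 2.58 ± 0.320 CPM per kb. With the longest transcript as the length, *Rbpj* moved to place 2 at 30.2 CPM per kb and *Jag1* was at place 8 in control mice.

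**Figure D2:**
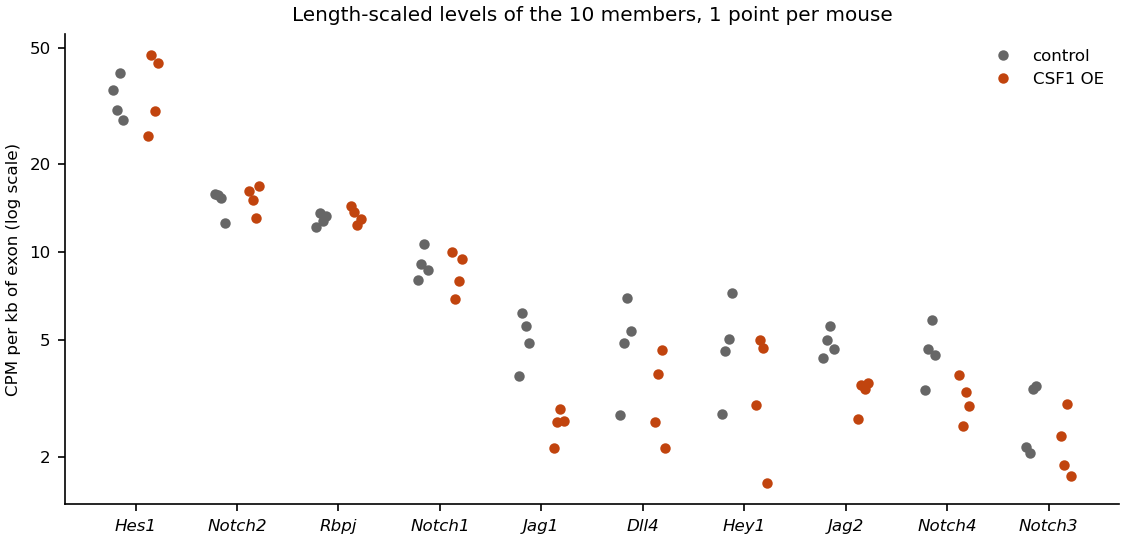
Levels of the 10 genes per kb of exon (vertical axis, CPM per kb, log scale) in control (grey) and CSF1 OE mice (orange), 1 point per mouse, ordered by the control mean. *Hes1* is highest at 34.0 CPM per kb in control mice and *Notch3* lowest at 2.78, and the 4 highest genes overlap between genotypes.

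The rest of the pathway was read from a list of 70 further genes by role, of which 65 were tested and *Dll3*, *Rbpjl*, *Hes2*, *Hes3* and *Hes7* had too few counts. None of the 65 was called in the main fit by edgeR, where 6 had an unadjusted p under 0.05. Of these 1 was higher and 5 were lower, while 10.1% of all genes tested were higher and 6.44% lower at that level. DESeq2 and limma each called 1 gene, *Efnb2*. Without CSF1 OE mouse 1932, edgeR called *Efnb2* as well. With animal-number range in the fit, edgeR called 7 of these genes, where it called 1273 of all 13407. Of the 65, 27 had a log2 fold change above 0 and 38 below it, with a median of -0.05, close to that of all genes. 1 was higher in every CSF1 OE mouse and 2 were lower in every one, against 6.84% and 3.45% of all genes tested.

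*Efnb2*, which codes for the arterial ligand ephrin-B2 and is a known Notch target in endothelium, had the lowest log2 fold change of the other targets. It was at 38.4, 41.4, 42.3 and 40.4 CPM in control mice and at 22.9, 27.9, 14.9 and 18.0 CPM in CSF1 OE mice. The groups were apart and the control mice were nearly alike. The log2 fold change was -0.96 (SE 0.18), with an adjusted p of 0.0558 by edgeR, and 4 of 14 alternatives called it, with a fold change from -1.13 to -0.82. In 1 of these 4 alternatives CSF1 OE mouse 1932 was left out, for an adjusted p of 0.0471 by edgeR. Of the other targets, *Myc* was the highest, with a log2 fold change of 0.00.

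Among the remaining ligands, *Dll1* was lowest, with a log2 fold change of -1.14 (SE 0.39, edgeR adjusted p = 0.203), and ranged from 5.97 to 13.1 CPM in control mice against 1.64 to 6.17 CPM. The groups overlapped. *Dlk1*, a Delta-like protein without the usual receptor-binding domain, had the largest positive value, 0.16 (SE 0.81). *Dlk2* was called lower with animal-number range in the fit, at -1.40, as were 971 of the 13407 genes tested. In the Hes and Hey family, *Hey2*, the second arterial Hey gene, had a log2 fold change of -0.75 (SE 0.33, edgeR adjusted p = 0.303), and *Hes5*, a target in neural progenitors, 0.20 (SE 0.58).

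The machinery that cuts the receptors had mostly positive values, 8 of 10 genes above 0 with a median of 0.15. Of all 13407 genes tested, 6002 were above 0. *Adam10*, the protease that makes the first ligand-dependent cut, was at 499, 423, 413 and 367 CPM in control mice and at 504, 515, 504 and 568 CPM in CSF1 OE mice. Every CSF1 OE mouse was above every control mouse, though only narrowly above mouse 1827, and the difference of 0.30 (SE 0.11) did not pass the test (edgeR adjusted p = 0.231). *Aph1b*, a subunit of gamma-secretase, was lowest of this list at -0.37. Receptor turnover had 2 of 10 genes above 0 and a median of -0.16, between *Dtx3l* at 0.19 and *Numbl*, a relative of the Notch inhibitor Numb, at -0.47. None of these 20 genes passed the test. With animal-number range as a term in the fit *Numbl* (-0.95) and *Dtx1* (-1.04) were called lower. That fit called 971 of the 13407 genes tested lower.

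The other roles had medians between -0.08 and 0.07. Among enzymes that add sugars to the receptors, values ran from 0.11 for the Fringe gene *Mfng* to -0.51 for *Eogt*. For the proteins that help ligands to be internalised they ran from 0.13 for the ubiquitin ligase *Neurl1a* to -0.43 for the adaptor *Epn2*. Coactivators ran from 0.26 for the Mastermind gene *Maml2* to -0.20 for the acetyltransferase *Ep300*. The corepressor *Ctbp2*, at -0.21, was lower in every CSF1 OE mouse, at 55.0 to 69.2 against 69.5 to 83.3 CPM, with an edgeR adjusted p of 0.309. With the term for animal numbers, *Eogt* (-0.73) and *Epn2* (-0.63) were called lower and *Maml2* (0.58) higher. That fit called 971 of the 13407 genes tested lower and 302 higher.

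**Figure D3:**
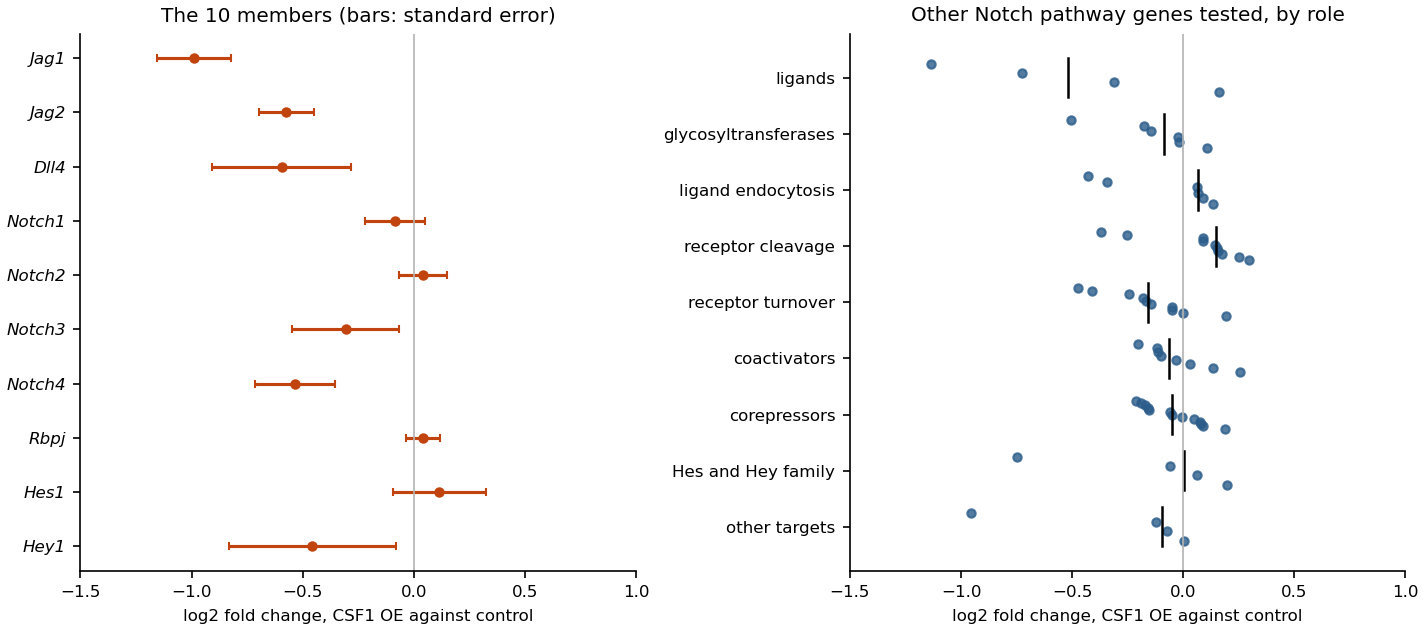
Log2 fold change of CSF1 OE against control (horizontal axes) for the 10 genes with their standard errors (left) and for the 65 other pathway genes tested, 1 point per gene with the median of each role as a line (right). *Jag1* is lowest of the 10 at -0.99, and *Dll1* (-1.14) and *Efnb2* (-0.96) are the lowest of the other pathway genes.

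Because several members are vessel genes, marker genes of cell types that the beads could carry along were measured beside them. All 8 arterial endothelial markers had a log2 fold change below 0, with a median of -1.04, and all 14 endothelial markers did, with a median of -0.69. None of these 22 markers was called, and 8 of the arterial and 5 of the endothelial markers had an unadjusted p under 0.05 and were lower, as were 6.44% of all genes tested. The summed arterial markers were 129, 230, 275 and 168 CPM in control mice and 84.9, 101, 111 and 82.9 CPM in CSF1 OE mice, which are apart. The summed endothelial markers overlapped, at 1204 to 2003 CPM in control mice against 553 to 1337 CPM. Among the arterial markers, *Gja5*, the arterial connexin, was at -1.31 (SE 0.33) and *Mgp*, a matrix protein of arteries, at -1.23 (SE 0.23) on the log2 scale.

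No marker of any other list was called. The 9 mural markers had a median of -0.08 and sums of 162 to 350 against 155 to 296 CPM, and the 10 microglial markers a median of -0.10. Border macrophages, which sit along vessels, had a median of -0.42, with sums of 2982 to 4056 CPM in control mice against 2140 to 3256 CPM. Of their 9 markers 8 were below 0, and 5 were lower and 1 higher at an unadjusted edgeR p under 0.05. All 6 fibroblast, all 6 neuron and all 4 tested ependyma and choroid plexus markers were also below 0, as were 7405 of all 13407 genes tested. A fall of every marker was thus not particular to the vessel lists, though every remaining list held markers above 0. The medians were -0.29 for fibroblasts, -0.15 for astrocytes, -0.08 for oligodendrocyte precursors, -0.47 for oligodendrocytes and -0.46 for neurons. They were -0.48 for ependyma and choroid plexus, -0.57 for monocytes, 0.29 for neutrophils, 1.53 for the single lymphoid marker tested and -0.10 for immediate early genes. The 3 monocyte markers diverged, since *Plac8* had a log2 fold change of 1.70 (SE 0.41, edgeR adjusted p = 0.0948) and was higher in every CSF1 OE mouse, and their sum was 12.5 to 25.5 CPM in control mice against 22.8 to 43.1 CPM. Apart from the arterial list, the summed levels of every list overlapped between the genotypes.

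**Figure D4:**
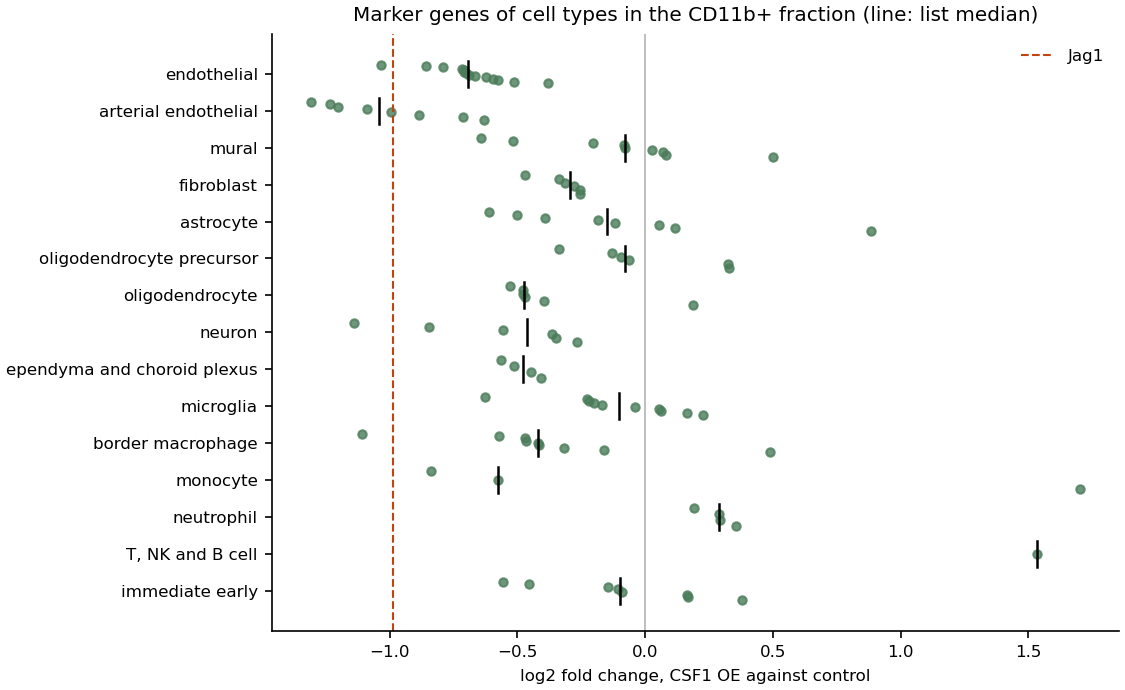
Log2 fold change of CSF1 OE against control (horizontal axis) for each marker gene tested, by cell type (rows), with the list median as a black line and *Jag1* (-0.99) as a dashed line. The medians of the arterial (-1.04) and endothelial (-0.69) lists are the lowest. Those of monocytes (-0.57), ependyma and choroid plexus (-0.48), oligodendrocytes (-0.47), neurons (-0.46) and border macrophages (-0.42) come next. Mural cells (-0.08) and microglia (-0.10) lie nearer 0.

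As a share of the summed arterial markers, *Jag1* did not separate the genotypes. It was 17.1%, 15.7%, 11.9% and 17.0% in the control mice and 14.7%, 15.2%, 15.3% and 18.6% in the CSF1 OE mice, a mean difference of 0.06 on the log2 scale. As a share of all endothelial markers it was 1.426% to 2.756% in control and 1.27% to 2.78% in CSF1 OE mice, a difference of -0.23 with overlap. On the arterial scale the other ligands also overlapped, with differences of 0.45 for *Jag2* and 0.44 for *Dll4*. The shares of *Notch1* (0.94) and *Rbpj* (1.07) were higher in every CSF1 OE mouse, while those of *Hes1* (1.11) and *Notch2* (1.07) overlapped. In CPM, *Notch1* (-0.09) and *Rbpj* (0.04) overlapped between genotypes. The arterial sum itself was lower in CSF1 OE mice, at a ratio of 0.474, so a gene with unchanged CPM has a higher share there. These shares use genes chosen with their own values known, and the part of vessel cells in the level of *Jag1* was not tested.

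**Figure D5:**
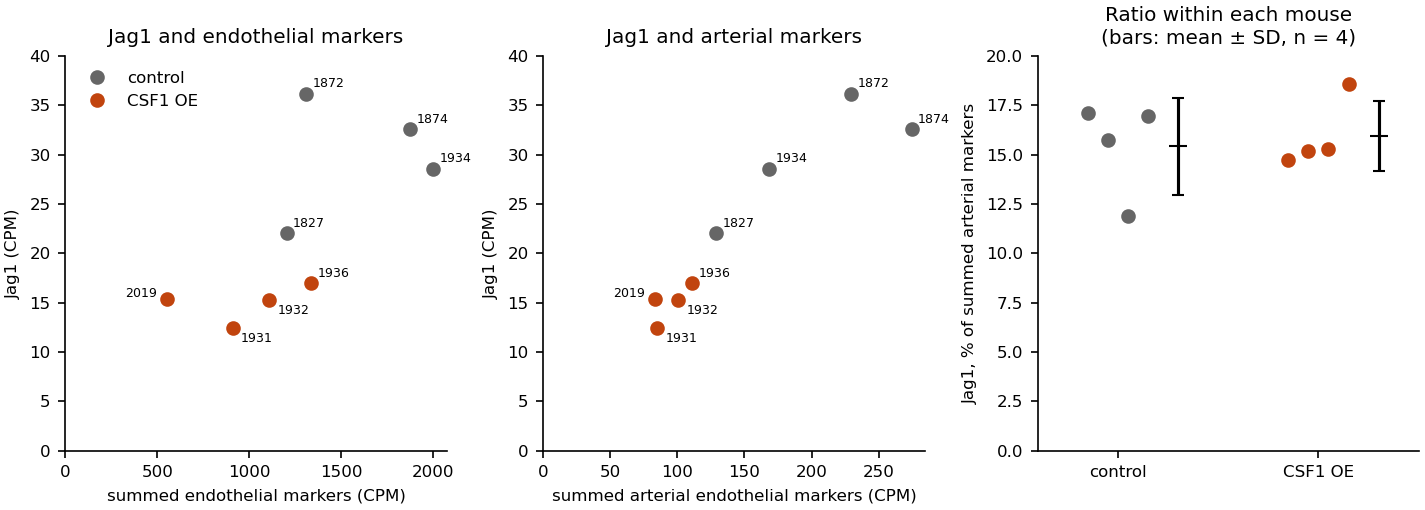
*Jag1* in CPM (vertical axes) against the summed endothelial (left) and arterial (middle) markers in CPM for each numbered mouse, and *Jag1* as a percent of the arterial sum (right, mean ± SD, n = 4). The CSF1 OE mice lie at the low end of both axes in the middle panel, and their shares of 14.7% to 18.6% overlap the control shares of 11.9% to 17.1%.

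The relation of members to marker sums within a genotype does not use the difference between genotypes, so it could be tested, in a step added after the data were seen. Log2 levels were taken as deviations from the genotype mean in the 8 mice, and each of the 10 genes was set against the endothelial, arterial and microglial sums, 30 relations in all. In exact two-sided permutation tests within genotype, over 576 permutations, none passed the Benjamini-Hochberg adjustment, and the lowest adjusted p was 0.0521 by Pearson's r and 0.104 by Spearman's rho. The genes and sums of a mouse share its library and total.

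The closest relation by Pearson's r was that of *Hey1* with the endothelial sum, with r = 0.93 (exact permutation p = 0.00347, adjusted 0.0521, n = 8) and rho = 0.86 (exact permutation p = 0.0208). *Dll4* followed the same sum with r = 0.86 (exact permutation p = 0.00521, adjusted 0.0521) and rho = 0.83 (exact permutation p = 0.0243). Without mice 1934 and 2019, which are farthest from the median of that sum, r was 0.78 for *Hey1* and 0.91 for *Dll4*. *Hey1* and *Dll4* also varied together, with r = 0.85 between their deviations. By rho the closest was *Notch2*, which ran against the endothelial sum, with rho = -0.93 (exact permutation p = 0.00347, adjusted 0.104) and r = -0.81 (exact permutation p = 0.0260, adjusted 0.130). *Notch3*, the mural receptor, followed that sum with rho = 0.90 (exact permutation p = 0.0243, adjusted 0.104) and r = 0.81 (exact permutation p = 0.0434, adjusted 0.161). Without mice 1934 and 2019, r was -0.74 for *Notch2* and 0.78 for *Notch3*. The relation of *Notch3* to the mural sum was not tested. That sum was 186, 162, 328 and 350 CPM in control mice 1827, 1872, 1874 and 1934. It was 223, 218, 296 and 155 CPM in CSF1 OE mice 1931, 1932, 1936 and 2019.

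*Jag1* followed the arterial sum, with r = 0.85 (exact permutation p = 0.0347, adjusted 0.149, n = 8) and rho = 0.81 (exact permutation p = 0.101). It was 0.81 without mice 1872 and 1874 and 0.65 to 0.91 with each mouse left out. With the endothelial sum as a whole the value for *Jag1* was 0.26 (exact permutation p = 0.514) and rho was 0.24 (exact permutation p = 0.615). That value rested on single mice, since it was 0.64 without mice 1934 and 2019, and -0.05 without mouse 1827. Whether the relation of *Jag1* differed between the arterial and endothelial sums was not tested. *Notch2* went with the microglial sum, with r = 0.88 (exact permutation p = 0.00347, adjusted 0.0521, n = 8) and rho = 0.88 (exact permutation p = 0.0104). Without mice 1934 and 2019 it was 0.65. *Hey1* ran against the microglial sum, with r = -0.83 (exact permutation p = 0.00694, adjusted 0.0521) and rho = -0.86 (exact permutation p = 0.0156), and r was -0.74 without these mice. The microglial and endothelial sums ran largely opposite to each other. Mouse 1934 had the highest endothelial sum, 2003 CPM, and the lowest microglial sum, 21514 CPM. Mouse 2019 had the lowest endothelial sum, 553 CPM, and the highest microglial sum, 39175 CPM. The relations of *Notch2* and *Hey1* to the microglial sum are therefore not separate results from their opposite relations to the endothelial sum.

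The genes most like *Jag1* over the 8 mice, by Pearson's r of log2 CPM among all genes tested, were *Sbspon* (0.973), *Tpgs2* (0.972), *Kctd13* (0.970), *Mrps6* (0.964) and *Srpk3* (0.963). This likeness includes the difference between genotypes, which chose *Jag1*. *Jag2* was the 9th gene in this order (0.954) and the arterial marker *Sema3g* the 10th (0.949). By deviations from the genotype mean the closest were *Zfyve28* (0.941), *Pim2* (0.940), *Cmc1* (0.934), *Slc19a2* (0.927) and *1810033B17Rik* (0.925), with no gene shared between the 2 sets of 5. *Jag1* and *Jag2* had r = 0.77 between their deviations. All these values are descriptions over 8 mice among 13407 genes.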

How the data were processed

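RNA from CD11b+ cells was measured in 8 mice, 4 per genotype, assigned by their labels. The authors deposited expected counts per gene, estimated by RSEM 1.2.7 after mapping with Bowtie 1.0.0 (bcl2fastq 1.8.4 and build mm10 are named in the submitters' processing notes). The annotation and strand setting are not given in the sources used here. The deposited normalized values are a signal, each mouse's counts divided by a size factor of the authors, and served 1 alternative only.

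Expected counts were rounded. Genes were fitted across all 13407 that passed filterByExpr with edgeR 4.0.16 (TMM, quasi-likelihood, Benjamini-Hochberg) under R 4.3.3, after the script was tested on simulated data. EBSeq, the authors' tool, was not used here. Levels per kb used GENCODE M21, which is on the same build. Correlations with marker sums were computed on log2 CPM in Python 3.11.15, and likeness between genes on log2 CPM with a prior count of 2. Alternatives were DESeq2 1.42.0, upper-quartile factors, 2 other filters, limma 3.58.1 on log2 of the deposited signal with a pseudocount of 1, a term for animal numbers, each mouse left out and no fold threshold.

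The members and all gene lists were chosen with earlier results of these data known. Named were the 10 members, the largest rise and fall of each pathway role, the 5 genes most like *Jag1* by each measure, and markers set beside a result; an item the rule names is not reported here. The genes beside the calling threshold, *Sema3g* in the order of likeness, *Gja5*, and genes called only under an alternative were named after their values were seen.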

Additional observations from a re-analysis of the deposited data

How the results depend on the processing

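The log2 fold changes of *Jag1*, *Jag2*, *Dll4*, *Notch3*, *Notch4*, *Hey1* and *Rbpj* kept their sign under every alternative run. Those of *Notch1* (-0.17 to 0.01), *Notch2* (-0.02 to 0.17) and *Hes1* (-0.03 to 0.29), all near 0, did not. *Hey1* ran from -1.03 to -0.20, *Dll4* from -0.84 to -0.39 and *Notch3* from -0.54 to -0.17. 59 genes were called in all, against 424 with DESeq2, 19 with upper-quartile factors, 104 with limma and 1273 with a term for animal numbers, and 3 to 164 with each mouse left out. 88.1% of the calls were higher in CSF1 OE mice, 63.2% with DESeq2 and 23.7% with the term for animal numbers. The members called were 1, against 2 with DESeq2 (*Jag1* and *Jag2*), 0 with upper-quartile factors, 0 with no filter and 2 with the term for animal numbers, and 0 to 1 with each mouse left out. Of the other pathway genes, 0 were called, against 1 with DESeq2, 1 with limma and 7 with the term for animal numbers (*Maml2* higher, *Dlk2*, *Dtx1*, *Efnb2*, *Eogt*, *Epn2* and *Numbl* lower), and 0 to 1 with each mouse left out. The cause of these shifts was not tested. Members lower in every CSF1 OE mouse numbered 2 over all mice and 6 within the ranges of animal numbers, both counts with *Jag1*, and members higher 0 and 1. Lengths from the longest transcript moved 5 of 10 levels per kb, and 31 of 300 repeated correlations changed sign. No paired analysis was possible because the labels give no litter or day by which mice could be paired. *Hey1* and *Dll4* rest on as few as 60 and 93 counts in a library, which limits their precision.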
